A study of Mus musculus with 32 samples.

Results

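The 46 genes described here carry out S phase and mitosis, and they were followed through all 32 RNA-seq libraries of embryonic mouse kidneys with tumor-type mutations of ENL, a histone reader encoded by Mllt1. They are 46 of the 55806 genes in the 4 deposited count tables, listed by name and matched to Ensembl identifiers, and all 46 were found and tested in every comparison. The S phase arm has 21 genes and the mitosis arm has 25. All animals of a line carried its Cre: every Six2 group, WT included, was Six2-TGC tg/+, a BAC transgene expressing a GFP-Cre fusion in Six2+ nephron progenitors and also carrying Six3, and every Foxd1 group, WT included, was Foxd1 GC/+, a knock-in that drives Cre in stromal progenitors and removes 1 functional Foxd1 allele. The WT groups were Enl +/+ on that background. The mutant groups were Enl T1/+ or Enl T3/+, heterozygous for an allele that runs as wildtype Enl until Cre removes its floxed cassette and then encodes 1 of 2 mutant forms of the YEATS domain, so that non-recombined cells of a whole kidney stayed wildtype. Whole kidneys at E18.5 gave 2 libraries for each Six2 genotype (WT, T1 and T3), and 3 each of Foxd1 WT and Foxd1-ENL T1. Sorted cells also carried an LSL-tdT reporter, which marks every cell that had Cre and its descendants: 3 libraries of Six2 WT and 3 of T1 tdT+ cells at each of E14.5 and E18.5, and 4 each of Foxd1 WT and T1 tdT+ cells at E18.5. The labels do not say whether libraries of a group came from separate animals, so that p-values measure the spread between these libraries.

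Dividing cells copy their DNA once per cycle and then part the copies in mitosis. Before S phase, E-type cyclins with Cdk2 and the E2F factors switch on the genes of origin licensing, the replicative MCM helicase and nucleotide supply; later, the MuvB complex with B-Myb and FoxM1 switches on cyclin B, Cdk1, the mitotic kinases and the kinetochore genes. In the embryonic kidney, cap mesenchyme progenitors, young nephron epithelia and stromal progenitors divide, and division slows as podocytes and tubules mature. In bulk RNA a lower level of such a gene can mean fewer cycling cells or less of its RNA in each, and these cannot be told apart here.

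The promoters of the genes that the results turn on are shown first, because the arms carry different promoter letters. RefSeq promoters (250 bases before to 50 after the start, build GRCm38.p6) were found for 38 of the 46 genes. Letters were searched on both strands. A listed gene counted where any of its promoters held a match, while the promoters behind the share of all were counted singly. The CHR element (TTTGAA or TTCGAA), which binds MuvB, was present in 14 of 20 mitosis promoters and 4 of 18 S phase promoters, together 47.4% against 19.2% of all 32851 promoters. The CCAAT box (CCAAT), bound by NF-Y, was in 16 of 20 mitosis and 12 of 18 S phase promoters, together 73.7% against 37.4% of all. E2F letters (TTTCGCGC, TTTGGCGC, TTTCCCGC or TTCCCGCC) were in 10 of 18 S phase promoters and 1 of 20 mitosis promoters, together 28.9% against 3.49% of all. A TATA sequence (TATAAA) was in 1 of the 38, or 2.63%, against 13.6% of all promoters. These matches are descriptions of letters and not of binding. Top2a, Plk1 and Mki67 of the mitosis arm and Mcm6 and Mcm3 of the S phase arm are printed, 5′ to 3′ on the strand of the gene, with CHR, CCAAT and E2F matches in capitals. Overlapping E2F matches run together, 2 on opposite strands in Mcm6 and 2 on the same strand in Mcm3.
Top2a (chr11:99024140-99024439, minus strand): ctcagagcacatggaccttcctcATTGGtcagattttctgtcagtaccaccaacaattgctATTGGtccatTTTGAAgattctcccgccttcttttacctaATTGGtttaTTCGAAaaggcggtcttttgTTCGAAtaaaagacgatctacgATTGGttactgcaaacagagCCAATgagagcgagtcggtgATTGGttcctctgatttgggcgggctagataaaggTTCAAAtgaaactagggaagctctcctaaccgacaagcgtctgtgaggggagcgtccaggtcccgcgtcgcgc
Plk1 (chr7:122159185-122159484, plus strand): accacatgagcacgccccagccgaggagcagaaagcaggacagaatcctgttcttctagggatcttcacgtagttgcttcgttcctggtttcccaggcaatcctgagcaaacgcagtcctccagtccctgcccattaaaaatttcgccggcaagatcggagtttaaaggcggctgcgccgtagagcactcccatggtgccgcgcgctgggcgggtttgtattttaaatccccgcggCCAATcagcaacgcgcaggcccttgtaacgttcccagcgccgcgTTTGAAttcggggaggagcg
Mki67 (chr7:135716330-135716629, minus strand): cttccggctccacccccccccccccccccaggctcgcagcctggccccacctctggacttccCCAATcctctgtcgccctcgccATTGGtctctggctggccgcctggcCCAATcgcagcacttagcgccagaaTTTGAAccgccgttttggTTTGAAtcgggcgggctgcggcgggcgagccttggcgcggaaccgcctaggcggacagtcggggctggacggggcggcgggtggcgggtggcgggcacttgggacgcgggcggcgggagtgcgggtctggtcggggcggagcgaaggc
Mcm6 (chr1:128359656-128359955, minus strand): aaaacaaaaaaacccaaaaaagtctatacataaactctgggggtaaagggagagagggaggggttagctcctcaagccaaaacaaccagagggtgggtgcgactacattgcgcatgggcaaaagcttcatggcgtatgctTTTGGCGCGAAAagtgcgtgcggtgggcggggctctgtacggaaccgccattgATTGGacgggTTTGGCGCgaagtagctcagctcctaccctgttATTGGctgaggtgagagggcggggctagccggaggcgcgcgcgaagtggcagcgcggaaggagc
Mcm3 (chr1:20820263-20820562, minus strand): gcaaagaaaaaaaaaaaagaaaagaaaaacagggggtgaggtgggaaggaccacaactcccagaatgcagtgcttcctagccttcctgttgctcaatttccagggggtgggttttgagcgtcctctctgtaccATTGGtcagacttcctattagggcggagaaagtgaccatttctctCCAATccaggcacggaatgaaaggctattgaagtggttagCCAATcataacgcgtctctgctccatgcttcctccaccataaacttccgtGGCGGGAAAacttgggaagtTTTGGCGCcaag
The Top2a promoter held 4 CHR and 6 CCAAT matches, that of Mki67 held 2 and 3, and that of Plk1 held 1 of each, with no E2F match in any of them. Mcm6 and Mcm3 held 3 E2F matches each and no CHR match.

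Mllt1 itself was measured first (Ensembl ENSMUSG00000024212, chr17:56892611-56935415, minus strand, mm10). The counts cover the whole gene and do not separate mutant from wildtype transcripts. In whole Six2 kidneys, Mllt1 stood at 89.3 and 105 CPM (read counts scaled to a common library total) in WT, 82.3 and 79.7 in T1 and 77.7 and 76.5 in T3. In sorted Six2 cells at E14.5 it was 227, 225 and 233 CPM in WT and 207, 208 and 200 in T1, and at E18.5 it was 85.3, 84.9 and 93.2 in WT and 82.1, 88.9 and 87.5 in T1. In whole Foxd1 kidneys it was 122, 125 and 119 CPM in WT and 104, 98.5 and 101 in T1. Mutant libraries lay below all WT libraries in both whole-kidney series and at E14.5, and the groups overlapped in the sorted Six2 cells at E18.5. They also overlapped in the sorted Foxd1 cells, at 27.2 to 45.2 CPM in WT and 29.8 to 37.9 in T1. Log2 fold changes were −0.26 (adjusted p = 0.0664) in Six2-ENL T1, −0.33 (adjusted p = 0.0238) in Six2-ENL T3, −0.14 (adjusted p = 0.0436) in sorted E14.5 cells and −0.27 (adjusted p = 0.00102) in whole Foxd1-ENL T1 kidneys by edgeR's quasi-likelihood test, adjusted by Benjamini-Hochberg. The values of −0.02 in sorted Six2 cells at E18.5 and −0.13 in sorted Foxd1 cells did not pass.

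The tables differ in depth. Libraries held 106005614 to 157266455 counts in the whole Six2 kidneys, 76510702 to 137888792 counts in the sorted Six2 cells and 67137194 to 79343015 counts in the whole Foxd1 kidneys, but 2557443 to 3508381 counts in the sorted Foxd1 cells. The sorted cells carried the markers of their lineage, with Six2 at 390 to 933 CPM in the Six2 cells at E14.5 and the stromal list (Foxd1, Pdgfra, Pdgfrb, Col1a1, Col3a1 and Tcf21) at a summed 5994 to 8182 CPM in the Foxd1 cells. By the Y-linked gene Ddx3y, both Six2-ENL T1 whole kidneys were male, both Six2-ENL T3 whole kidneys were female, and the WT pair held 1 of each. The library of E14.5 WT replicate 1 stood apart from the rest of its group, with immediate early stress genes at a summed 2483 CPM against 1369 to 1458 in the other WT libraries, and T3 replicate 1 of the whole kidneys had red cell genes at 3944 CPM against 1512 to 2709 in the other 5.

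A gene was called where the adjusted p was under 0.05 and the fold change over 1.5, or, between stages, under 0.01 and over 2. Genes past the adjusted p at any fold are counted separately below.

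**Figure D1:**
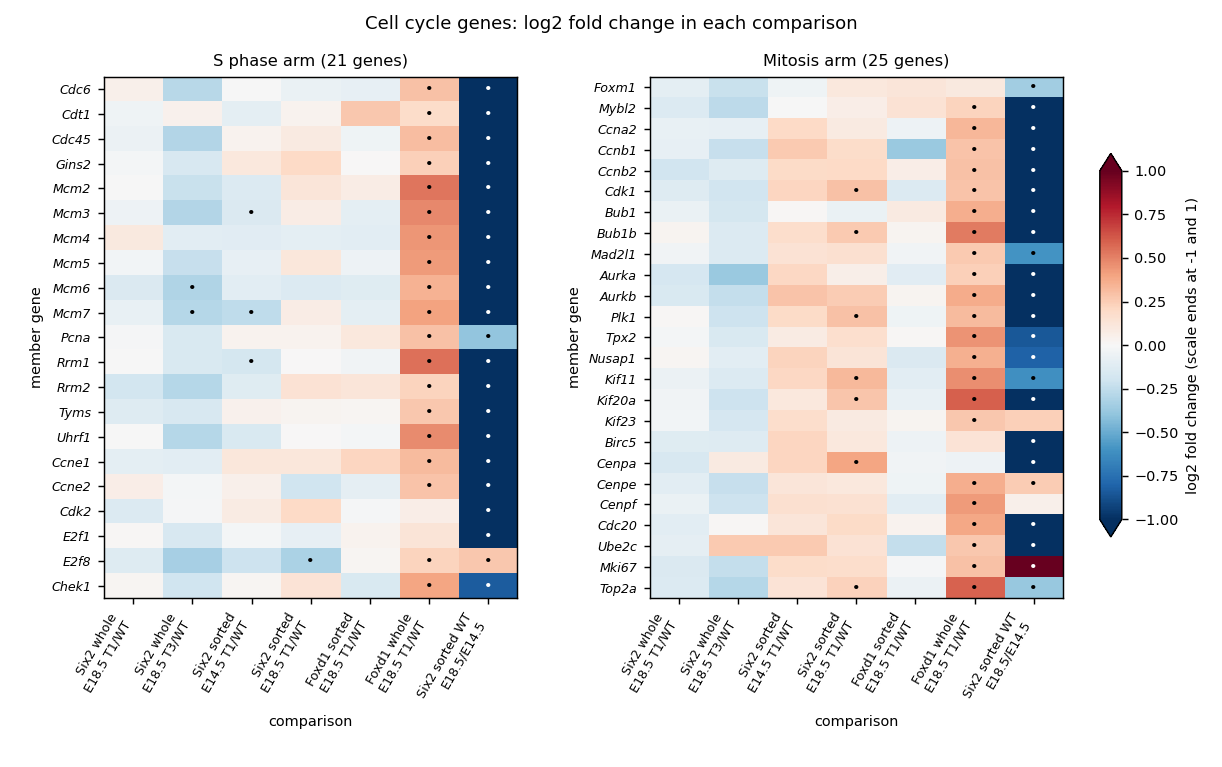
Log2 fold change of each of the 46 genes (rows, by arm) in each comparison (columns), with the color scale ending at −1 and 1. The whole Foxd1 kidney column has 45 of 46 genes above 0, and the column of E18.5 against E14.5 has 41 of 46 below 0.

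**Figure D2:**
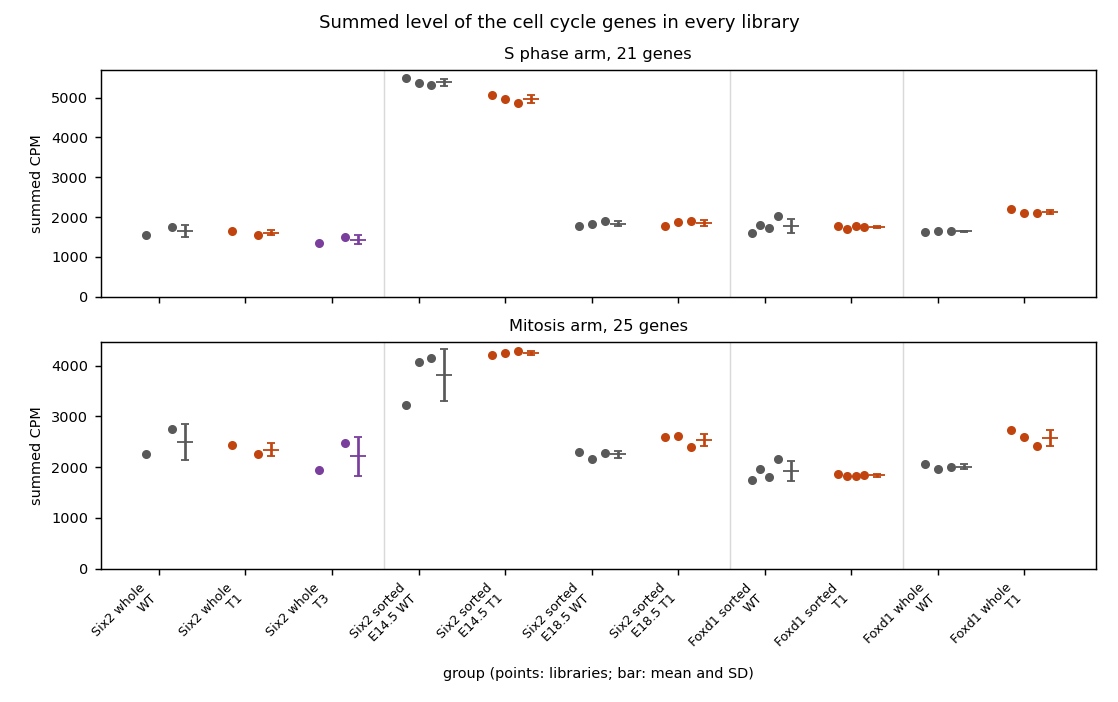
Summed CPM of the S phase arm (top) and the mitosis arm (bottom) in every library of every group, with bars for the mean and SD. The S phase sum falls from 5312 to 5482 in E14.5 WT cells to 1786 to 1895 at E18.5, and the whole Foxd1-ENL T1 libraries lie above all WT libraries in both panels.

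Per length of exon, the level and the order of the genes differed among the WT groups. In sorted E14.5 Six2 cells the highest were Rrm2, the small subunit of ribonucleotide reductase, at 209 ± 2.38 CPM per kb (SD, n = 3), then the helicase subunit Mcm6 at 141 ± 5.44 and the anaphase activator Cdc20 at 123 ± 20.2. The spread of Cdc20 reached that of Mcm6 and of Mcm3 (110 ± 0.472), so that their order was not resolved, while Rrm2 stood clear of them. In sorted E18.5 Six2 cells the sliding clamp Pcna led at 61.8 ± 3.06 CPM per kb, followed by Mcm4 at 46.8 ± 4.90 and the proliferation marker Mki67 at 45.03 ± 2.70, the latter pair within their spread. Pcna also led in whole Foxd1 WT kidneys at 56.2 ± 1.53 and in sorted Foxd1 WT cells at 59.7 ± 7.86, where Ube2c, the ubiquitin-conjugating enzyme of the anaphase-promoting complex, was at 53.5 ± 6.44 (SD, n = 4). In whole Six2 WT kidneys the highest were Mcm6 at 43.3 ± 2.24 CPM per kb (SD, n = 2), Top2a at 42.8 ± 10.5 and Pcna at 40.4 ± 1.32, whose spreads overlapped. In sorted Foxd1 WT cells the lowest was the repressor E2f8, and in whole Foxd1 WT kidneys it was the licensing factor Cdc6. Library kit and depth differed among these groups, as did the enzyme of cell release between stages. Their part in the levels and the order was not tested.

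The stage comparison asked how these genes stood in WT Six2-derived cells at E18.5 against E14.5. Of the 46, 33 were called lower, where 20.6% of all 25222 genes tested were, and 1 was called higher, where 24.8% of all genes were. The median log2 fold change was −1.49, against 0.02 for all genes. At any fold, 41 genes passed the adjusted p of 0.01 lower and 3 higher, beside 32.7% and 31.4% of all genes. Of the origin licensing and helicase genes 10 of 10 were called lower, with a median of −1.71. Called lower were also 4 of 5 genes of DNA synthesis and nucleotide supply, 3 of 3 of the E-type cyclins and Cdk2, 4 of 4 mitotic cyclins and Cdk1, and 2 of 2 anaphase activators, Cdc20 and Ube2c. Of the kinases and spindle genes 5 of 9 were called lower and 8 of 9 passed the adjusted p lower at any fold, of the checkpoint genes 2 of 4 and 4 of 4, of the transcription factors 2 of 4 and 3 of 4, and of the centromere genes 1 of 3 on either count. Cell types differed between the stages too. Six2 stood at 806 to 933 CPM in WT at E14.5 and at 199 to 262 at E18.5, nephron progenitor genes summed to 1459 to 1699 CPM and then 422 to 547, podocyte genes to 91.5 to 118 and then 2596 to 3048, and proximal tubule genes to 6.53 to 21.6 and then 1323 to 1774. Immediate early stress genes summed to 1369 to 2483 CPM at E14.5 and to 2531 to 3222 at E18.5. The part of these lists in the stage values was not tested.

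Plk1, a kinase of mitotic entry and the spindle, stood at 86.8, 127 and 140 CPM at E14.5 and at 20.9, 18.9 and 20.5 at E18.5. Rrm2 stood at 583, 571 and 581 CPM at E14.5 and at 95.5, 100 and 105 at E18.5. Mcm2 stood at 487, 461 and 468 CPM at E14.5 and at 113, 114 and 119 at E18.5. In each the 2 stages were far apart and did not overlap. Their log2 fold changes were −2.55 (SE 0.14), −2.53 (SE 0.05) and −2.03 (SE 0.05), with adjusted p of 3.39e-10, 8.13e-14 and 2.59e-13 by edgeR's quasi-likelihood test, adjusted by Benjamini-Hochberg. Cyclin B1 (Ccnb1) fell from 190, 270 and 274 CPM to a mean of 53.6 ± 3.94 (SD, n = 3), and Cdc20 from 186, 244 and 256 to 60.9, 50.01 and 50.2. E14.5 WT replicate 1 was the lowest of its stage for both of these and for Plk1, and still above every E18.5 library. Cyclin E1 (Ccne1) fell from 111, 105 and 97.6 CPM to 26.3, 28.9 and 29.0, Cdk1 from 110, 135 and 152 to 52.0, 49.0 and 40.9, and E2f1, the founding E2F factor, from 70.2, 67.2 and 68.1 to 26.5, 23.9 and 24.7. No library of these 3 genes crossed between the stages.

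Mki67, which encodes the Ki-67 protein of the mitotic chromosome surface, went against the list. It stood at 131, 142 and 145 CPM at E14.5 and at 470, 422 and 468 at E18.5, a log2 fold change of 1.70 (SE 0.07, adjusted p = 4.07e-11 by edgeR's quasi-likelihood test, adjusted by Benjamini-Hochberg). The stages did not overlap. Top2a, topoisomerase II alpha, which untangles sister chromatids, was at 337, 429 and 415 CPM and then 312, 302 and 295, so that its fold was under the fold set for a call although all E18.5 libraries were lower (log2 fold change −0.38, SE 0.08). Pcna went from 205, 193 and 187 to 147, 156 and 142 CPM (−0.40, SE 0.06). Among the 12 genes that did not make a call in either direction, the kinetochore gene Cenpf (0.05) and the cytokinesis motor Kif23 (0.24) did not pass the adjusted p of 0.01 at any fold, while E2f8 (0.27) and the kinetochore motor Cenpe (0.25) passed it higher. Without E14.5 WT replicate 1 the count of genes past it higher was 1 in place of 3.

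The size of the fall followed gene length. Over the 46 genes Spearman's rho between log2 fold change and union exon length was 0.58, against 0.08 over all 25214 genes with a length. Genes over 7000 bp had a median log2 fold change of −0.16 among these genes (n = 8) and 0.55 among all genes (n = 3693), while those of 2000 to 3000 bp had −2.01 (n = 7) and −0.17 (n = 3904). Mki67 with 10061 bp of exon and Top2a with 9013 bp are in the longest class. With an offset for length in the fit, which was added after the data were seen, Mki67 stood at 1.02 and Top2a at −0.93, Cenpe turned to −0.25, and 35 genes were called lower and 1 higher. Cells were released with trypsin at E14.5 and with collagenase II at E18.5, and the stage and the enzyme cannot be told apart.

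**Figure D3:**
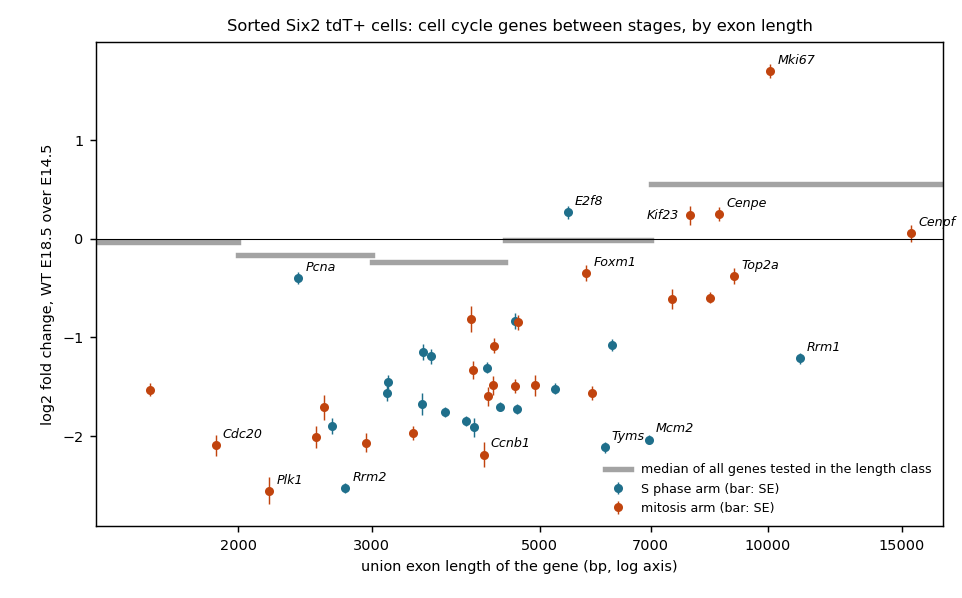
Log2 fold change of each of the 46 genes in sorted WT Six2 cells, E18.5 over E14.5, against union exon length in bp on a log axis. The 7 genes of 2000 to 3000 bp have a median of −2.01, and the long genes Mki67 at 1.70, Cenpe at 0.25 and Cenpf at 0.05 are among the 5 above 0.

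The genes around the list, chosen to cover the rest of the pathway, moved with it between stages. Of 30 other S phase genes 21 were called lower and 1 higher, the checkpoint adaptor Clspn (1.06), and of 30 other mitosis genes 17 were called lower and 0 higher. The CDK inhibitor Cdkn1b (p27) stood at 3.41, 4.20 and 2.80 CPM at E14.5 and at 87.7, 108 and 106 at E18.5, a log2 fold change of 4.85 (SE 0.13). Cdkn1a (p21) rose by 2.05 (SE 0.15), the D-type cyclin Ccnd1 by 1.70 (SE 0.20) and its kinase Cdk6 by 3.08 (SE 0.08), while Ccnd2 fell by 1.01 (SE 0.07). All 5 were called. Cdkn1c (p57) passed the adjusted p of 0.01 lower without reaching the fold for a call (−0.55, SE 0.11).

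In sorted Six2 cells at E14.5, T1 was compared with WT. None of the 46 genes was called, where 6.40% of all genes were in either direction. At any fold, 0 passed the adjusted p of 0.05 higher, where 6.38% of all genes did, and 3 passed it lower, where 6.50% did. With no adjustment, 7 genes had p under 0.05 higher and 8 lower, where 12.9% and 13.2% of all genes did. The 3 that passed lower, a count near the share of all genes, were the helicase subunits Mcm7 and Mcm3 and Rrm1, the large subunit of ribonucleotide reductase. Mcm7 stood at 450, 466 and 448 CPM in WT and at 377, 382 and 373 in T1. Rrm1 stood at 432, 473 and 454 CPM in WT and at 411, 399 and 380 in T1, and Mcm3 at 413, 411 and 409 and then 381, 366 and 355. The groups did not overlap for any of the 3. Log2 fold changes were −0.25 (SE 0.03, adjusted p = 0.00263) for Mcm7, −0.18 (SE 0.05, adjusted p = 0.0461) for Rrm1 and −0.14 (SE 0.04, adjusted p = 0.04995) for Mcm3 by edgeR's quasi-likelihood test, adjusted by Benjamini-Hochberg. Without WT replicate 2, T1 replicate 2 or T1 replicate 3, 1 gene passed lower in place of 3, and without WT replicate 3 or T1 replicate 1 the count higher was 5 or 1 in place of 0. By Ddx3y the WT libraries were 1 male and 2 female and the T1 libraries 2 male and 1 female, and with a sex term 5 genes passed higher and 4 lower.

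Other helicase genes had values on the same side without passing, with Mcm2 at 487, 461 and 468 CPM in WT and 436, 429 and 406 in T1 (−0.14, adjusted p = 0.0745 by edgeR's quasi-likelihood test, adjusted by Benjamini-Hochberg) and Rrm2 at 583, 571 and 581 and then 541, 526 and 513 (−0.12). The summed level of the S phase arm was 5482, 5361 and 5312 CPM in WT and 5079, 4964 and 4855 in T1, with every T1 library below every WT library. The mitosis arm had a median log2 fold change of 0.19, with 23 of 25 genes above 0, against 0.00 for all genes. That arm summed to 3225, 4076 and 4154 CPM in WT and to 4214, 4255 and 4280 in T1. The low value was that of WT replicate 1, the library with high stress genes, and without it the median of the arm was 0.06. Whether the stress genes had a part in it was not tested. Mki67 stood at 131, 142 and 145 CPM in WT and 142, 166 and 163 in T1 (0.19, SE 0.07), and Ccnb1 at 190, 270 and 274 and then 294, 284 and 292 (0.26, SE 0.12), neither past the adjusted p. Of the 30 other mitosis genes 4 passed it higher at any fold and 0 lower (Cks2 0.30, Pttg1 0.28, Spc24 0.26 and Hmgb2 0.19), and of the 30 other S phase genes 1 passed higher (Tk1, 0.25) and 2 lower (Pole, −0.21, and Dut, −0.19). Nephron progenitor genes summed to 1459 to 1699 CPM in WT and to 762 to 950 in T1, and stromal genes to 428 to 581 and 818 to 1667.

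In sorted Six2 cells at E18.5 again none of the 46 genes was called, where 11.7% of all genes were in either direction. At any fold 7 genes passed the adjusted p of 0.05 higher, where 9.58% of all genes did, and 1 passed lower, where 10.7% did. With no adjustment 16 had p under 0.05 higher and 1 lower, where 15.1% and 15.5% of all genes did. All 7 are in the mitosis arm, whose median was 0.16, with 24 of 25 genes above 0. The S phase arm had a median of 0.04 and its sums overlapped, at 1786, 1831 and 1895 CPM in WT and 1779, 1878 and 1905 in T1. The mitosis arm summed to 2307, 2169 and 2273 CPM in WT and to 2602, 2605 and 2395 in T1, with no overlap.

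Cenpa, the histone H3 variant that marks the centromere, stood at 58.2, 53.4 and 55.2 CPM in WT and at 72.4, 77.6 and 68.6 in T1 (log2 fold change 0.40, SE 0.07, adjusted p = 0.00123 by edgeR's quasi-likelihood test, adjusted by Benjamini-Hochberg). Kif11, the motor that pushes spindle poles apart, stood at 102, 104 and 96.7 CPM and at 126, 134 and 117 (0.32, SE 0.07, adjusted p = 0.00388 by the same edgeR test). T1 lay above WT in every library of both. Cdk1 (0.30), Plk1 (0.29), the central spindle motor Kif20a (0.27), the checkpoint kinase-like gene Bub1b (0.26) and Top2a (0.23) passed with adjusted p from 0.0126 to 0.0407, by edgeR's quasi-likelihood test. Top2a stood at 312, 302 and 295 CPM in WT and 384, 346 and 332 in T1, and Cdk1 at 52.0, 49.0 and 40.9 and then 59.4, 58.3 and 55.7, without overlap. The gene that fell was E2f8, an atypical E2F that represses other E2F targets, at 47.1, 49.9 and 52.1 CPM in WT and 38.8, 37.9 and 42.2 in T1 (−0.32, SE 0.07, adjusted p = 0.00782 by edgeR's quasi-likelihood test, adjusted by Benjamini-Hochberg).

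The remaining core genes did not pass. Mki67 stood at 470, 422 and 468 CPM in WT and 486, 544 and 495 in T1 (0.17, SE 0.07), Ccnb1 at a mean of 53.6 ± 3.94 (SD, n = 3) and then 63.5, 65.8 and 52.4 (0.18, SE 0.09), and Mcm2 at 113, 114 and 119 and then 124, 124 and 126 (0.12, SE 0.06). Mcm2 and Mki67 did not overlap and Ccnb1 did. The count of 7 rested on few libraries: 2 genes passed higher without WT replicate 2, T1 replicate 1 or T1 replicate 2, 4 without WT replicate 3, and 11 higher and 2 lower without WT replicate 1. Without scaling factors, 18 passed. Of the 30 other mitosis genes, 10 passed higher at any fold and 0 lower, among them Pttg1 (0.35), Espl1 (0.35) and Incenp (0.34). Other cell types moved with genotype here. Podocyte genes summed to 2596 to 3048 CPM in WT and 164 to 201 in T1, proximal tubule genes to 1323 to 1774 and 443 to 486, red cell genes to 73.9 to 135 and 1014 to 1446, and macrophage genes to 34.0 to 36.4 and 75.3 to 84.6. Of the red cell list the globins Hba-a1 and Hbb-bt were high in T1, at 683 to 966 and 313 to 463 CPM. Of the nephron progenitor list Six2 stood at 212, 199 and 262 CPM in WT and 79.0, 95.8 and 98.8 in T1. Cited1, Eya1 and Crym were also lower in T1, and Meox1 overlapped. Of the stromal list Col1a1 stood at 156, 188 and 95.5 CPM in WT and 343, 428 and 394 in T1. Col3a1 and Pdgfra were also higher in T1, Pdgfrb overlapped, and Foxd1 and Tcf21 were lower. The part of these cell types in the mitotic genes was not tested.

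**Figure D4:**
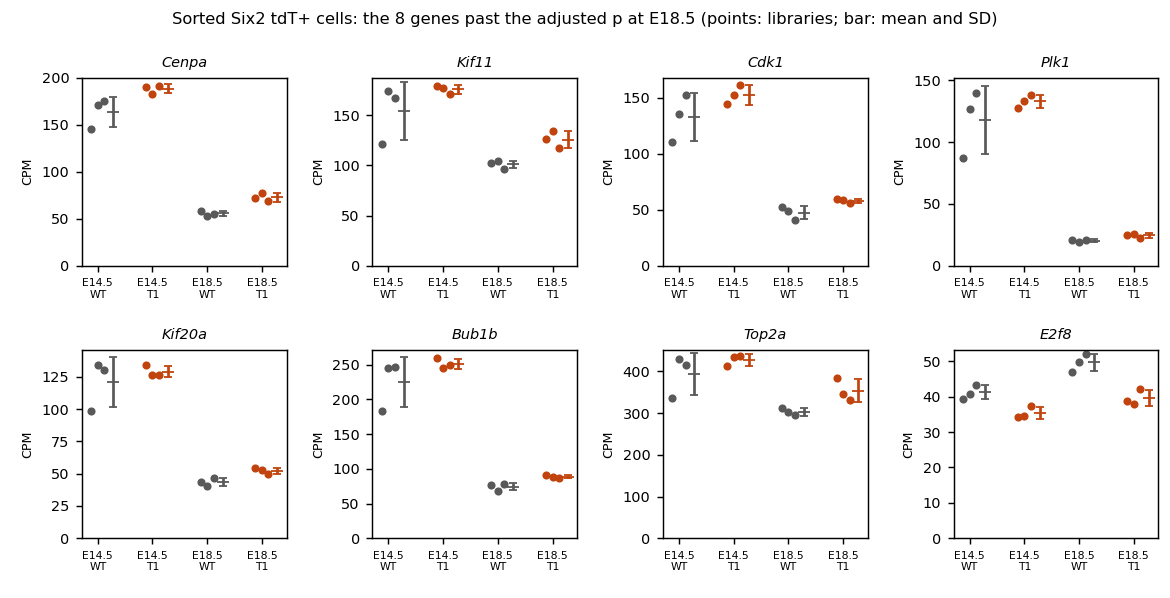
CPM in each library of sorted Six2 cells, WT and T1 at both stages, for the 8 genes past the adjusted p at E18.5, with the mean and SD as bars. At E18.5 T1 lies above WT for 7 genes, Cenpa at 68.6 to 77.6 against 53.4 to 58.2 CPM, and below it for E2f8.

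Whether the effect of T1 differed between stages was tested as an interaction in the sorted Six2 cells, with the E18.5 effect minus the E14.5 effect. Of the 46 genes 3 passed the adjusted p of 0.05 higher, where 3.94% of all genes did, and 0 lower, where 4.22% did. The 3 were Mcm7 (0.34, SE 0.06, adjusted p = 0.00499), Rrm2 (0.27, SE 0.07, adjusted p = 0.0237) and Mcm2 (0.27, SE 0.07, adjusted p = 0.0262) by edgeR's quasi-likelihood test, adjusted by Benjamini-Hochberg. Each was lower in T1 than in WT at E14.5 and at or above WT at E18.5, where Mcm7 stood at 138, 138 and 143 CPM in WT and 142, 147 and 150 in T1. Mcm7 shares 12.6% of its exon sequence with neighboring transcripts. Of the mitosis arm 0 of 25 passed, with a median of 0.02. For the 3 genes, 8 of the 12 libraries left 1 gene past the adjusted p when taken out, namely all 3 E18.5 T1 libraries, WT replicates 1 and 2 at E18.5, WT replicate 1 at E14.5 and T1 replicates 2 and 3 at E14.5. Without WT replicate 1 at E18.5, 1 gene also passed lower.

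In whole Six2 kidneys at E18.5 none of the 46 genes was called in T1 against WT, where 7.77% of all 23931 genes were, or in T3 against WT, where 9.62% were. In T1 no gene passed the adjusted p at any fold, where 5.02% of all genes passed higher and 9.16% lower. The median was −0.06 (range −0.19 to 0.10), and 0 genes had an unadjusted p under 0.05 in either direction, where 10.9% of all genes had it higher and 15.3% lower, while 1 gene passed higher when WT replicate 2 was left out. In T3, 0 genes passed higher, where 7.27% of all genes did, and 2 passed lower, where 10.2% did, the helicase subunits Mcm6 and Mcm7. Mcm6 stood at 194 and 209 CPM in WT, 184.8 and 181 in T1 and 156 and 173 in T3, and Mcm7 at 105 and 118, 110 and 102, and 89.2 and 93.9. T3 lay below WT in both libraries for each gene, with log2 fold changes of −0.30 (SE 0.07, adjusted p = 0.0259) and −0.28 (SE 0.07, adjusted p = 0.0317) by edgeR's quasi-likelihood test, adjusted by Benjamini-Hochberg. With no adjustment 14 genes had p under 0.05 lower in T3 and 0 higher, where 16.6% and 13.9% of all genes did, and the median of the 46 was −0.18 against 0.00 for all genes.

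The whole-kidney T3 values depended on single libraries. Summed over all 46 genes, the level was 3795 and 4503 CPM in WT, 4082 and 3813 in T1 and 3291 and 3987 in T3. Only T3 replicate 1, the library with the high red cell genes, lay below every WT and T1 library, and T3 replicate 2 was within the range of the others. Without T3 replicate 1 the median was −0.04 and 0 genes passed, without T3 replicate 2 the median was −0.34, and without WT replicate 1 there were 13 genes past the adjusted p lower. Without WT replicate 2, 0 genes passed lower and 2 passed higher, and without either T1 library 0 passed lower. Mki67 stood at 342 and 453 CPM in WT, 370 and 349 in T1 and 300 and 375 in T3, Top2a at 319 and 453, 367 and 336, and 274 and 360, and Ccnb1 at 71.2 and 77.0, 73.9 and 66.4, and 54.2 and 72.2. T3 overlapped WT for all 3 genes, and the part of the red cell genes was not tested. T3 against T1 gave 0 of 46 genes past the adjusted p, where 0.00418% of all genes passed, with 8 lower and 1 higher (Ube2c) at an unadjusted p under 0.05, where 2.29% and 4.90% of all genes were. Its median was −0.13, and 0.02 without T3 replicate 1. Both T1 libraries were male and both T3 libraries female, so that only the WT pair, with 1 of each, separates sex from mutation. With a sex term, added after the data were seen, the median of T3 against T1 was −0.31 with 0 genes past the adjusted p, and 13 genes in place of 2 passed lower in T3 against WT. T1 and T3 were compared with the same WT pair.

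In whole Foxd1-ENL T1 kidneys at E18.5 nearly all of the genes were higher than in WT. At any fold 41 of 46 passed the adjusted p of 0.05 higher, where 16.4% of all 20145 genes did, and 0 passed lower, where 17.0% did. With the fold of 1.5, 2 genes were called higher, where 2.65% of all genes were, and 0 lower, where 7.53% were. The median was 0.31 against 0.00 for all genes. Every T1 library lay above every WT library for 42 of the 46 genes, a count that was not made over all genes. By role, 10 of 10 licensing and helicase genes, 5 of 5 DNA synthesis genes, 4 of 4 mitotic cyclins and Cdk1, 4 of 4 checkpoint genes, 8 of 9 kinase and spindle genes and 2 of 2 anaphase activators passed higher. Both arms had a median of 0.31. The 5 that did not pass were Cdk2 (0.07), E2f1 (0.13), Foxm1 (0.10), the survivin gene Birc5 (0.14) and Cenpa (−0.05).

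The 2 called genes were Kif20a and Top2a. Kif20a stood at 36.7, 38.2 and 36.0 CPM in WT and at 58.4, 58.1 and 51.6 in T1 (log2 fold change 0.60, SE 0.06, adjusted p = 9.38e-06 by edgeR's quasi-likelihood test, adjusted by Benjamini-Hochberg). Top2a stood at 266, 237 and 251 CPM in WT and at 401, 386 and 346 in T1 (0.59, SE 0.06, adjusted p = 1.71e-05 by the same edgeR test). Neither overlapped between groups. Their folds were 1.51 and 1.502, at the edge of the call, and without WT replicate 3, T1 replicate 1 or T1 replicate 2 neither was called, and without WT replicate 2 only Kif20a was, although both stayed past the adjusted p with each library left out. Of the exon sequence of Kif20a 29.3% is shared with Cdc23, and reads there could be split or lost in counting without strand.

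Genes of DNA replication were among the highest. Rrm1 stood at 137, 142 and 136 CPM in WT and 214, 200 and 195 in T1 (0.55, SE 0.05), and Mcm2 at 113, 126 and 120 and then 174, 170 and 177 (0.54, SE 0.05). Mcm3 stood at 120, 123 and 120 CPM in WT and 169, 167 and 171 in T1 (0.48, SE 0.05). Pcna was at 131, 138 and 135 and then 178, 159 and 158 (0.29, SE 0.06), and Rrm2 at 92.5, 90.5 and 97.6 and then 115, 108 and 104 (0.22, SE 0.06). No T1 library of these 5 genes reached down to a WT library. In the mitosis arm Bub1b stood at 79.4, 82.7 and 79.7 CPM in WT and 118, 117 and 112 in T1 (0.52, SE 0.05), and Mki67 at 247, 209 and 250 and then 290, 306 and 268 (0.29, SE 0.07). Ccnb1 was at 88.5, 87.8 and 85.7 CPM and then 115, 104 and 99.8 (0.28, SE 0.06), Cdk1 at 79.0, 84.8 and 83.5 and then 109, 95.1 and 96.5 (0.28, SE 0.06), and Cdc20 at 89.5, 97.7 and 86.8 and then 124, 120 and 114 (0.39, SE 0.06). Ccne1 was at 18.3 to 18.52 CPM and then 24.1, 22.5 and 22.2 (0.32, SE 0.06). All 6 rose and none overlapped. E2f1 was at 33.6, 36.2 and 35.5 and then 40.1, 37.4 and 37.6 CPM, apart in every library yet not past the test (adjusted p = 0.103 by edgeR's quasi-likelihood test, adjusted by Benjamini-Hochberg).

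**Figure D5:**
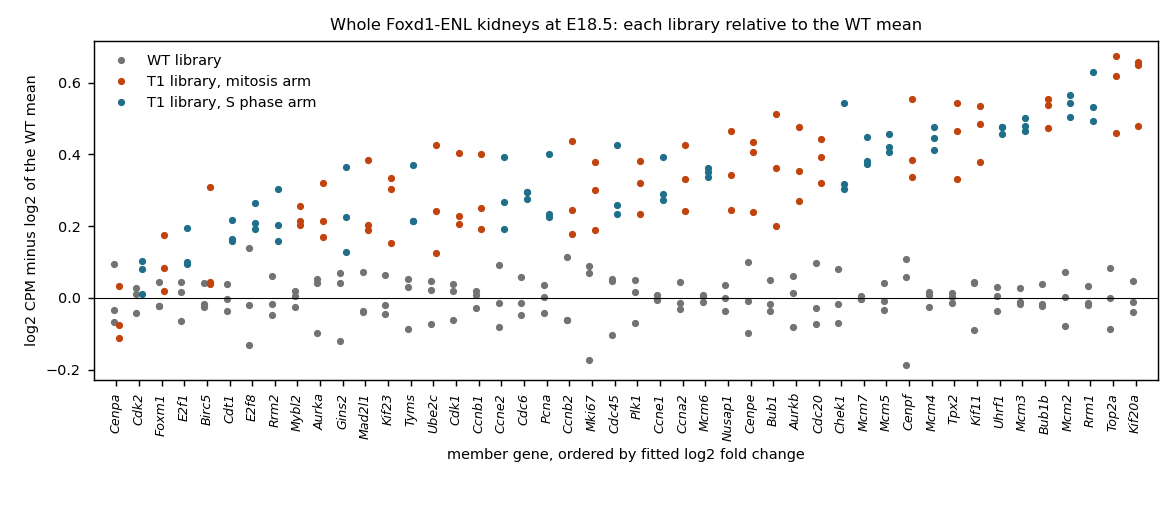
For each of the 46 genes, ordered by fitted log2 fold change, the log2 CPM of each whole Foxd1 kidney library minus the log2 of the WT mean. The T1 points lie above all WT points for 42 genes, a count that was not made over all genes. The fitted values run from −0.05 at Cenpa, where the groups overlap, to 0.60 at Kif20a.

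The rise went beyond the listed genes and came with shifts in other cell types. Of 30 other S phase genes 21 passed the adjusted p higher at any fold and 1 lower, and 1 was called, the flap endonuclease Fen1 (0.65, SE 0.18), at 1.40, 1.90 and 1.93 CPM in WT and 2.94, 2.86 and 2.40 in T1. Of 30 other mitosis genes 24 passed higher and 1 lower (Pttg1, −0.25). Nephron progenitor genes summed to 256 to 278 CPM in WT and to 391 to 492 in T1, proximal tubule genes to 2157 to 2247 and 977 to 1289, and loop and distal tubule genes to 897 to 982 and 469 to 620. Stromal genes summed to 4131 to 5199 and 4918 to 5162, overlapping. The count of 41 was 36 to 41 over the libraries left out. The part of the tissue make-up in it was not tested.

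In sorted Foxd1 tdT+ cells at E18.5, which hold the stromal lineage itself, no gene of the list was called, where 5.81% of all 12717 genes tested were, and none passed the adjusted p at any fold, where 5.94% of all genes passed higher and 4.78% lower. The median was −0.04, and with no adjustment 0 genes had p under 0.05 higher and 2 lower, where 12.3% and 11.0% of all genes did. The 2 were Ccnb1, at 59.1, 67.8, 76.5 and 83.9 CPM in WT and 68.2, 52.3, 50.9 and 49.9 in T1 (−0.37, SE 0.12, adjusted p = 0.0544), and Ube2c, at 118, 134, 147 and 157 CPM and 110, 116, 117 and 126 (−0.24, SE 0.09, adjusted p = 0.100), by edgeR's quasi-likelihood test, adjusted by Benjamini-Hochberg. The groups overlapped for both, and 2 genes passed lower without WT replicate 1 and 1 without T1 replicate 1. Mki67 stood at 147, 168, 126 and 164 CPM in WT and 177, 138, 138 and 150 in T1 (−0.01, SE 0.10), Top2a at 219, 244, 244 and 280 and then 250, 219, 240 and 238 (−0.06, SE 0.08), and Mcm2 at 76.8, 87.2, 89.1 and 100 and then 93.5, 91.9, 87.2 and 97.1 (0.07, SE 0.09). All 3 overlapped. Summed over the 46 genes, WT libraries spanned 3336 to 4187 CPM and T1 libraries 3531 to 3650. Immediate early stress genes summed to 4565 to 4908 CPM in WT and 2987 to 3642 in T1, and their part was not tested. In these cells a fold as small as that of the whole kidneys was measured with an SE near 0.10. The part of depth in this SE was not tested. By Ddx3y all sorted Foxd1 libraries were male and all whole Foxd1 kidney libraries female.

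The effect of T1 at E18.5 was also compared between the sorted lineages as an interaction, the Foxd1 effect minus the Six2 effect, over the 14869 genes tested in both. Of the 46 genes 4 passed the adjusted p of 0.05 lower, where 7.63% of all genes did, and 0 higher, where 8.25% did. They were Ccnb1 (−0.57, SE 0.16, adjusted p = 0.0189), Cdk1 (−0.45, SE 0.13, adjusted p = 0.0168), Cenpa (−0.45, SE 0.14, adjusted p = 0.0345) and Kif20a (−0.36, SE 0.11, adjusted p = 0.0278) by edgeR's quasi-likelihood test, adjusted by Benjamini-Hochberg. In Six2 cells all 4 had T1 above WT on average, and in Foxd1 cells below. Of Cdk1 the Foxd1 libraries held 122, 144, 127 and 152 CPM in WT and 119, 116, 130 and 133 in T1. The count was 2 without WT replicate 2 or 3 of the Six2 cells and 8 without WT replicate 1 of the Foxd1 cells. Libraries of the lineages were sequenced at different depth and stored in separate tables, and lineage and table cannot be told apart for levels, only for the effect of T1 within each. By Ddx3y the sorted Foxd1 libraries were all male, while the sorted Six2 libraries at E18.5 were of both sexes in each genotype. The part of sex in the lineage interaction was not tested.

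Among the genes that set entry into the cycle, some D-type cyclins and CDK inhibitors were called by genotype. Ccnd2, a D-type cyclin, stood at 392, 341 and 339 CPM in WT and 622, 594 and 668 in T1 in sorted Six2 cells at E14.5 (0.83, SE 0.07), and at 172, 189 and 173 and then 483, 517 and 534 at E18.5 (1.53, SE 0.07). It was called at both stages, without overlap, and the stage interaction was 0.71 (SE 0.10, adjusted p = 0.00051 by edgeR's quasi-likelihood test, adjusted by Benjamini-Hochberg). In whole Six2 kidneys it was at 362 and 388 CPM in WT, 518 and 504 in T1 and 489 and 498 in T3, past the adjusted p in both (0.45 and 0.40) without reaching the fold for a call. In sorted Foxd1 cells it was at 618, 732, 750 and 829 CPM in WT and 653, 642, 691 and 681 in T1 and did not pass (−0.13, SE 0.08), and the lineage interaction was −1.68 (SE 0.11). In whole Foxd1 kidneys it was at 218, 227 and 227 and then 277, 287 and 273 CPM (0.32, SE 0.05), past the adjusted p. Ccnd1 was called higher in sorted Six2 cells at E18.5, at 329, 316 and 290 CPM in WT and 534, 485 and 461 in T1 (0.67, SE 0.07), and had 0.10 (SE 0.23) at E14.5, 0.19 (SE 0.10) in sorted Foxd1 cells and 0.22 (SE 0.05) in whole Foxd1 kidneys, of which the last passed.

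The CDK inhibitors went separate ways. Cdkn1c, which marks cells leaving the cycle such as podocytes, stood at 530, 687 and 665 CPM in WT and 177, 189 and 191 in T1 in sorted Six2 cells at E18.5 (−1.75, SE 0.09, adjusted p = 2.13e-08 by edgeR's quasi-likelihood test, adjusted by Benjamini-Hochberg), where podocyte genes were also low in T1. The part of podocytes in this fall was not tested. At E14.5 Cdkn1c was at 1015, 935 and 801 and then 752, 591 and 725 CPM (−0.39, SE 0.11), past the adjusted p and without overlap. It had −0.08 (SE 0.09) in sorted Foxd1 cells, −0.21 (SE 0.05), past the adjusted p, in whole Foxd1 kidneys, and 0.03 and 0.23 in whole Six2 T1 and T3 kidneys, where it did not pass. Cdkn1a stood at 42.9, 23.0, 41.9 and 45.6 CPM in WT and 61.1, 72.8, 58.5 and 63.9 in T1 in sorted Foxd1 cells and was called higher (0.76, SE 0.15). It passed the adjusted p lower in sorted Six2 cells at E18.5, at 142, 169 and 151 and then 107, 113 and 123 CPM (−0.42, SE 0.08), and the lineage interaction was 1.16 (SE 0.19). Cdkn1b passed the adjusted p in sorted Foxd1 cells, at 37.3, 31.8, 40.3 and 36.1 and then 22.7, 27.5, 26.2 and 31.6 CPM (−0.42, SE 0.12), and in no other genotype comparison. The inhibitor Cdkn2b was called higher in whole Six2 kidneys at low levels, 0.668 and 0.876 CPM in WT, 1.57 and 1.43 in T1 and 1.66 and 1.82 in T3 (0.95 and 1.17). Among the called genes of the remaining lists were Gas1, a growth arrest gene, in sorted Six2 cells at E14.5 (−0.77, SE 0.09), Gadd45a at E18.5 (−0.73, SE 0.07) and the MYC factor Mycn in sorted Foxd1 cells (−0.71, SE 0.14).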

How the data were processed

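RNA from whole kidneys (KAPA stranded kit) and sorted tdT+ cells (SMART-Seq v4 kit) was sequenced, and the authors deposited raw gene counts made with HISAT2 on mm10 and HTSeq, counted without strand. The labels name bcl2fastq and edgeR too. Counts of each of the 4 tables were analysed as deposited with edgeR 4.0.16 in R 4.3.3. Genes were filtered (filterByExpr, minimum count 10 and total 15), scaled by TMM, fitted by the quasi-likelihood method and adjusted by Benjamini-Hochberg over all genes. All groups of a table were fitted together, except that the genotype tests of sorted Six2 cells used only the libraries of their stage. For the lineage interaction the 2 tables of sorted cells were joined. CPM use the TMM library sizes, and CPM per kb divide by union exon length. Calls needed more than a 1.5-fold change at an adjusted p below 0.05, or 2-fold at 0.01 between stages, and no fold for interactions or T3 against T1. Alternatives were DESeq2 1.42.0, edgeR's exact test, other scalings and filters, a replicate block, each library left out, and, added after seeing the data, a length offset and sex. Tests were first checked on simulated counts. Named genes were all 46 by counts, the 10 core genes and up to 5 called genes a direction with their values, and fixed regulators. A few genes of the other lists are not reported here. The gene members and lists were chosen with earlier results of these data known. Figures used matplotlib 3.10.9. Same-numbered libraries had residual correlations of −0.0791 to 0.0997 over 19 pairs, so the numbers were not taken to pair libraries, and none of 33 replicate pairs agreed within sampling noise. Intervals of depth cover counting error only. Sequence was taken from RefSeq on GRCm38.p6.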

Additional observations from a re-analysis of the deposited data

Results flagged for a closer look

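In the sorted Foxd1 cells a single library stood away from the other 3 of its group for 2 genes, by Dixon's test at 95%. Rrm2 was at 134 CPM in T1 replicate 4 with the nearest other library at 106, and Ccnb1 was at 68.2 CPM in T1 replicate 1 with the nearest at 52.3. Over 98 such values tested, 2 were flagged, and chance flags about 1 in 20 groups.

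The effect of T1 differed between stages in sorted Six2 cells for Mcm2 (0.27), Mcm7 (0.34) and Rrm2 (0.27), given as the log2 effect at E18.5 minus that at E14.5. At E18.5 it differed between the sorted lineages for Ccnb1 (−0.57), Cdk1 (−0.45), Kif20a (−0.36) and Cenpa (−0.45), given as the effect in Foxd1 cells minus that in Six2 cells. Each passed the adjusted p of edgeR's interaction test. Of all genes, 3.94% passed higher in the stage interaction and 7.63% passed lower in the lineage interaction. Both lists changed when single libraries were left out.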

How the results depend on the processing

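The fall with age and the rise in whole Foxd1-ENL T1 kidneys kept their direction under every alternative, with 31 to 35 genes called lower and 41 to 42 past the adjusted p higher over the settings that keep all libraries. Without a fold threshold the called counts became 41 higher in whole Foxd1 kidneys, 3 higher with age, 2 lower in T3, 3 lower at E14.5, and 7 higher and 1 lower at E18.5. Of genes past the adjusted p lower in T3 (2), the exact test and DESeq2 gave 5, library size only 0, no filter 18, the replicate block 1 and sex 13. At E14.5 the 0 higher became 2 by the exact test, 4 by DESeq2, 1 by library size only, 3 with no filter, 1 with the replicate block, 2 with the length offset and 5 with sex, and the 3 lower became 7 by DESeq2 and 1 by library size only or the block. At E18.5 library size only gave 18 higher and a median of 0.21. In sorted Foxd1 cells the 0 lower became 1 by the exact test, library size only or the block and 2 with no filter. With no filter T3 had 1 higher, and T3 against T1 had 1 higher and 2 lower. Sex gave 1 higher in whole T1 kidneys and a median of −0.31 for T3 against T1. The length offset left 1 called gene in whole Foxd1 kidneys, and with age it or library size only left 1 gene past the adjusted p higher and turned Cenpe to −0.25 (length offset). The age median was −1.36 by DESeq2 or RLE factors and −1.63 by library size only. Of the 3 stage interaction genes, RLE, no filter, the block and the length offset left 1 and library size only gave 5, and of the 4 lineage interaction genes library size only gave 7. The cause was not tested.

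With each library left out, genes past the adjusted p ranged over 0 to 1 higher in whole T1, 0 to 13 lower and 0 to 2 higher in T3, 1 to 3 lower and 0 to 5 higher at E14.5, 2 to 11 higher and 1 to 2 lower at E18.5, 0 to 2 lower in sorted Foxd1 cells, 1 to 3 higher with age, 1 to 3 higher and 0 to 1 lower in the stage interaction, and 2 to 8 lower in the lineage interaction, and 0 to 2 were called in whole Foxd1 kidneys. Medians ranged from −0.34 to −0.043 in T3, from −0.27 to 0.021 for T3 against T1, and from −0.028 to 0.089 in the stage interaction. Over 2908 values of single genes, 59 came past the threshold, 131 lost it and 1 reversed, Cenpe above. Replicate numbers paired no libraries, and the block is given for that reason only here. Depth was lowest in the sorted Foxd1 cells, and its part in their results was not tested.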
